A study of Mus musculus with 8 samples.

Results

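The genes described here encode the calcium-sensing phosphatase calcineurin, its inhibitors, the NFAT transcription factors it acts on, and calcium/calmodulin-dependent kinase II (CaMKII). They are 10 genes, Ppp3ca, Ppp3cb, Rcan1, Rcan2, Nfatc1, Nfatc2, Nfatc3, Nfatc4, Camk2a and Camk2b, taken by name. On the array, 15 of 55681 non-control probes carry an accession that maps to one of them. Nfatc1, Nfatc2, Nfatc3, Camk2a and Camk2b have 2 probes each and the other 5 genes have 1. In muscle fibres a rise in calcium loads calmodulin, which switches on calcineurin and CaMKII. Calcineurin removes phosphate from NFAT proteins, which then enter the nucleus, and in skeletal muscle this pathway is known for its part in slow fibre gene expression. CaMKII phosphorylates proteins of calcium handling and class II histone deacetylases.

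RNA came from the extensor digitorum longus (EDL), a fast hindlimb muscle, of 4 PCKO and 4 wild-type (WT) male C57BL/6 mice. PCKO mice carried an inducible, muscle-restricted knockout of the acetyltransferase coactivators p300 (Ep300) and CBP (Crebbp), although their genotype field names CBP alone. Oral tamoxifen was begun at 13 to 15 weeks of age and lasted 5 days, and the tissue was collected a day later after 4 h of fasting. The protocol describes tamoxifen for PCKO mice and does not say whether WT mice received it. No driver of the recombinase is named in the sources used here. One single-colour array was run per mouse. The comparison addresses how these calcium-signalling transcripts stood a few days after the loss of both coactivators was induced.

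Values are log2 spot intensities minus the 75th percentile of the same array, so 0 marks that percentile. Because probes differ in brightness, levels are compared between mice for the same probe and never between probes. A probe was tested where it lay well above background on at least 4 of 8 arrays, and a change was called at an adjusted p under 0.05 in a limma fit over all 24872 tested probes. Ep300 averaged -1.30 ± 0.14 in PCKO and 0.15 ± 0.16 in WT, and Crebbp averaged 3.68 ± 0.07 in PCKO and 4.38 ± 0.20 in WT (SD, n = 4 each). Ep300 fell by 1.44 and Crebbp fell by 0.70 on the log2 scale (adjusted p = 9.57e-06 and 0.000597 in that order), the Crebbp call being lost when arrays were centred on spike-in probes (-0.02, adjusted p = 0.963) and with a model-based background correction named normexp (-0.41, adjusted p = 0.0547). Where their probes lie relative to the deleted exons is not known here. All 8 muscle fibre markers were well above background on every array and lower in PCKO, with a summed intensity of 2124 to 2581 times the 75th percentile in PCKO, against 5269 to 6300 times in WT. Lower calls were also made for all 4 endothelial markers, all 3 macrophage and leukocyte markers with a probe, all 4 fibroblast markers and all 3 smooth muscle and pericyte markers, and for none of 3 adipocyte and none of 3 erythroid markers. The differences of Myh4 (-0.66), Tnni2 (-0.63), Dcn (-0.64), Cdh5 (-0.60) and Pecam1 (-0.42) were under 0.68 log2 units in size. That is the shift between this scale and the spike-in scale described below. The other markers called lower in these lists differed by more. In bulk muscle, fewer cells of a type and less RNA per cell cannot be told apart, and the part of cell composition in the results below was not tested.

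Of the 15 probes, 11 were lower in PCKO and none was higher, where 31.3% of all tested probes were lower and 33.8% were higher. In 10 of the 15, all 4 PCKO values lay below all 4 WT values, as for 28.6% of all tested probes. Taking the brightest probe of each gene, 7 of 10 genes were lower (background 31.9% of 12739 genes), and the median log2 difference, PCKO minus WT, was -1.04, against 0.06 over all genes. Of the 15 probes, 14 were well above background on all 8 arrays, and 10 of those were lower. The exception was the dimmer Nfatc2 probe, which passed the filter through the WT arrays alone. It is counted among the 11 lower probes and among the 10 whose groups did not overlap. Thus Camk2a, Ppp3ca, Nfatc1, Nfatc2, Ppp3cb, Camk2b and Rcan2 were lower, while Nfatc3, Nfatc4 and Rcan1 did not pass. The plot of all 15 probes in each mouse shows these levels.

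**Figure D1:**
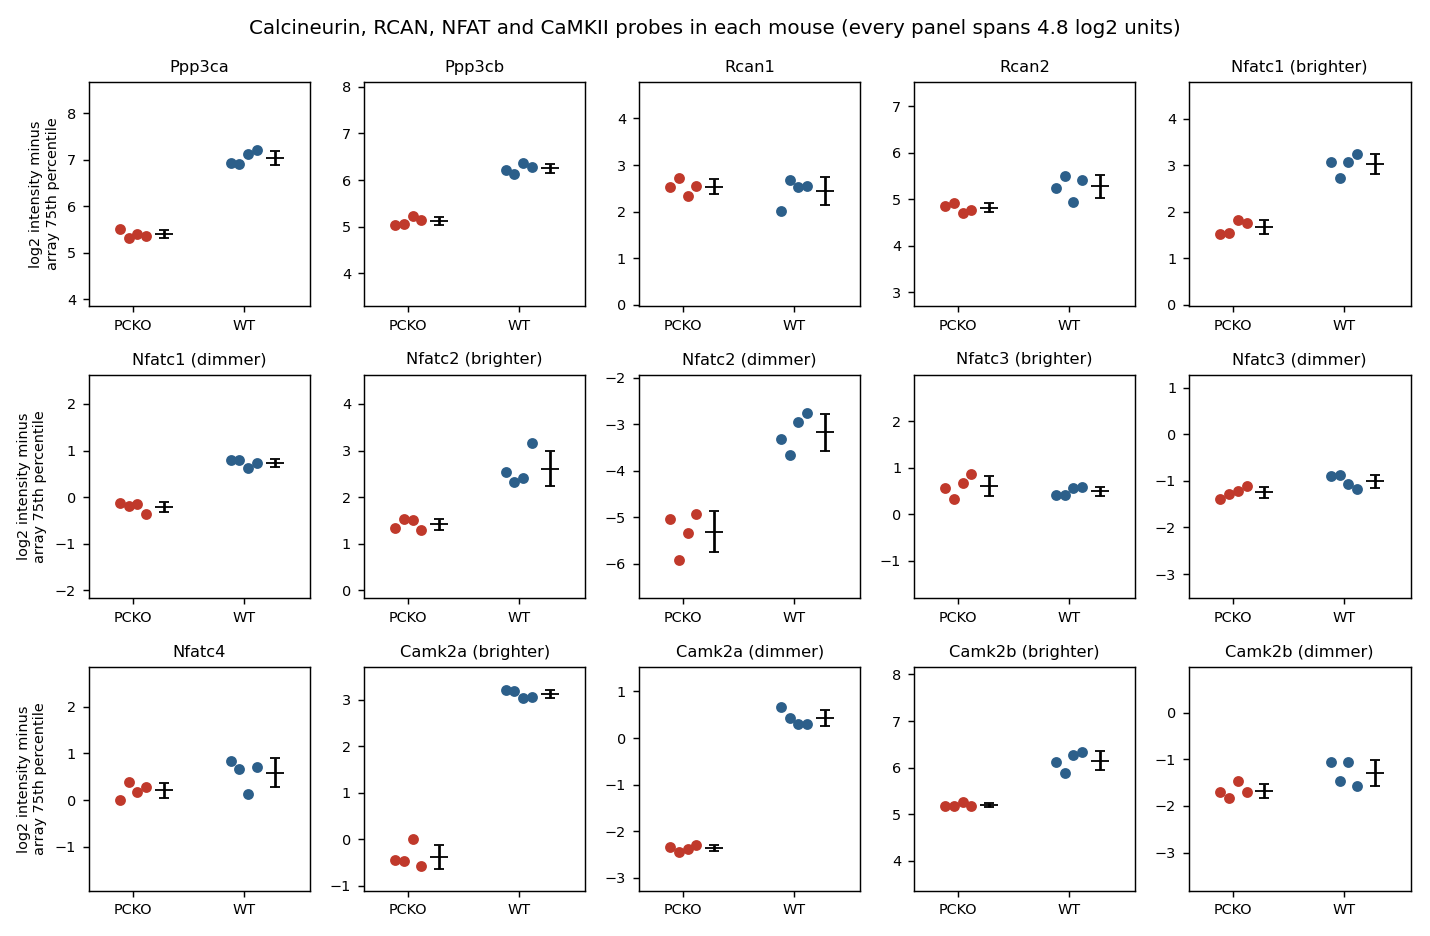
Level of every probe in each mouse (y axis, log2 intensity minus the array's 75th percentile; red, PCKO; blue, WT; black, mean and SD of 4 mice). Both Camk2a probes, Ppp3ca and Ppp3cb show groups that lie apart, whereas the Rcan1, Nfatc3 and Nfatc4 groups overlap.

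The scale matters for these calls. Measured against 7 spike-in control probes, the 75th percentile itself was 0.68 log2 units higher in PCKO (-2.80 ± 0.33 in PCKO and -3.48 ± 0.30 in WT, SD, n = 4 each). A two-sided exact permutation test gave p = 0.029, the smallest that 4 mice against 4 allow. Centred on the spike-ins, 5 of the 15 probes were lower and 2 were higher. Of all 24872 tested probes 15527 were called there, and 84.6% of those calls were higher rather than 51.9%. Both Camk2a probes, Ppp3ca and the brighter Nfatc1 probe, all well above background on every array, were called lower on both scales. The Nfatc1 call was narrow on the spike-in scale (-0.68 ± 0.30, SE of the fit). The fifth was the dimmer Nfatc2 probe, whose PCKO level was not measured above background. Changes below are therefore relative to other transcripts on the array. Error shared by all probes of an array makes p-values on the spike-in scale too small. Calls made there, lower or higher, are limited by this wherever they are given below. A further alternative, the normexp model, replaced the scanner's own correction. It was fitted to the raw spot signals and the local background values of the scanner, and an offset of 50 was added before taking log2. That offset by itself shrinks the differences of dim probes. Comparisons between related genes within an array do not depend on how the array is centred.

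Calcineurin consists of a catalytic A subunit and a regulatory B subunit. Ppp3ca, which encodes the alpha form of the catalytic subunit, stood at 5.52, 5.32, 5.41 and 5.36 in the 4 PCKO mice, against 6.93, 6.91, 7.12 and 7.21 in the 4 WT mice. The groups lay well apart, and the spread within each was small. The log2 difference was -1.64 ± 0.10 (SE of the fit), a level 3.11-fold lower in PCKO (adjusted p = 1.86e-06). On the spike-in scale it was -0.95 (adjusted p = 0.00399). Ppp3cb, the beta form, stood at 5.04, 5.06, 5.24 and 5.14 in PCKO, against 6.22, 6.14, 6.37 and 6.28 in WT. It too was lower in every PCKO mouse than in any WT mouse, with a log2 difference of -1.14 ± 0.09 or 2.20-fold (adjusted p = 8.10e-06). That call was lost on the spike-in scale (-0.45, adjusted p = 0.177). In the 2 slide rows taken alone, each with 2 mice per group, Ppp3ca differed by -1.50 and -1.78 and Ppp3cb by -1.13 and -1.14.

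The probes of the 2 catalytic subunits did not fall equally. The log2 ratio of Ppp3ca to Ppp3cb within an array averaged 0.29 ± 0.14 in PCKO and 0.79 ± 0.09 in WT (SD, n = 4 each), a difference of -0.50. The exact permutation test gave p = 0.029, the smallest that 70 arrangements allow, or 0.040 adjusted over 14 ratios tested. Under quantile normalization the smallest adjusted p of any ratio was 0.05, not under the threshold, so none passed there. Ratios between 2 probes of 1 gene shifted as far, by -0.71 for Camk2a and -0.56 for Camk2b. A shift of this size therefore cannot be assigned to the genes rather than to their probes. Ppp3cc, the third catalytic gene, averaged 3.16 ± 0.16 in PCKO and 2.90 ± 0.25 in WT and did not pass (log2 difference 0.26 ± 0.14, adjusted p = 0.141). It passed as higher under the normexp model, at 0.41 (adjusted p = 0.0303), and on the spike-in scale, at 0.94 (adjusted p = 0.00475). Ppp3r1, the widely expressed regulatory subunit, averaged 5.29 ± 0.17 in PCKO and 5.53 ± 0.10 in WT and did not pass either (-0.24 ± 0.11, adjusted p = 0.0786), although it was lower with an intensity trend (adjusted p = 0.0415) and without PCKO replicate 1 (-0.30, adjusted p = 0.0407). The Ppp3r1 difference was 0.02 with quantile-normalized arrays, -0.05 under the normexp model and 0.45 on the spike-in scale, none of which passed. Ppp3r2, the testis form of that subunit, was not well above background on any array.

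RCAN proteins bind calcineurin and inhibit it, and Rcan1 is itself a textbook NFAT target that feeds back on the phosphatase. Its probe read 2.53, 2.72, 2.33 and 2.55 in PCKO, against 2.02, 2.68, 2.53 and 2.54 in WT. The groups overlapped throughout, with WT replicate 1 the lowest of all 8 mice. The log2 difference of 0.09 ± 0.15 did not pass (adjusted p = 0.633), and in the 2 slide rows it was 0.27 and -0.10. On the spike-in scale it was 0.77 and passed as higher (adjusted p = 0.0218). Rcan2 read 4.86, 4.92, 4.70 and 4.78 in PCKO, against 5.25, 5.49, 4.94 and 5.42 in WT. Every PCKO value was below every WT value, though by a margin of hundredths between the closest mice, and the log2 difference was -0.46 ± 0.13 or 1.37-fold lower (adjusted p = 0.0123). That call is not a stable one. It was lost when arrays were quantile-normalized (-0.26, adjusted p = 0.0923), under the normexp model (-0.19, adjusted p = 0.248), in the deposited table (-0.24, adjusted p = 0.0724) and in either slide row alone, and its sign turned on the spike-in scale (0.23, adjusted p = 0.517).

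Relative to Rcan2, Rcan1 was higher in PCKO. The within-array log2 ratio of Rcan1 to Rcan2 averaged -2.29 ± 0.08 in PCKO and -2.83 ± 0.33 in WT (SD, n = 4 each), a difference of 0.55 (exact permutation p = 0.029, adjusted p = 0.040). Under quantile normalization it was 0.36 and did not pass (adjusted p = 0.0923). The shift of this ratio was no larger in size than that between the Camk2b probes (-0.56). Rcan3, the remaining member of the family, was higher, at -0.31 ± 0.18 in PCKO and -1.59 ± 0.17 in WT, a log2 difference of 1.28 ± 0.12 or 2.43-fold (adjusted p = 3.28e-05).

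Rcan1 has an upstream and an internal start, and the internal one is known for a cluster of NFAT sites. The promoters are shown because Rcan1, a feedback inhibitor of calcineurin, had no call while Ppp3ca and Ppp3cb fell. They come from RefSeq (GRCm38.p6), run 250 bases before to 50 after the start on the strand of the gene, and carry the NFAT core GGAAA, or TTTCC on the other strand, in capitals. The windows are the upstream Rcan1 start at chr16:92466120-92466419 on the minus strand, the internal Rcan1 start at chr16:92400029-92400328 on the minus strand, and, for comparison with a member that fell, the Ppp3cb start at chr14:20546524-20546823 on the minus strand.
Rcan1 upstream: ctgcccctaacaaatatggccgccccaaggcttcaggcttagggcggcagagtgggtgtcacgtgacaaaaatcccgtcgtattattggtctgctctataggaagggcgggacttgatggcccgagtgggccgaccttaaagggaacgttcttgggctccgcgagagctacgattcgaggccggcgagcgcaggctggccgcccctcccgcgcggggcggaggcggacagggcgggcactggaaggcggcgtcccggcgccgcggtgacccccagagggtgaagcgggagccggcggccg
Rcan1 internal: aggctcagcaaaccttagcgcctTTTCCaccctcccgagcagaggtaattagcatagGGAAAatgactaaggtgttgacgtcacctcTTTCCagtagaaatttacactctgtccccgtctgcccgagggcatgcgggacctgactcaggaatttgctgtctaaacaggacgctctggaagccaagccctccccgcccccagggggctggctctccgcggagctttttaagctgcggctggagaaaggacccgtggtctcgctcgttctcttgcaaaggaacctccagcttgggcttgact
Ppp3cb: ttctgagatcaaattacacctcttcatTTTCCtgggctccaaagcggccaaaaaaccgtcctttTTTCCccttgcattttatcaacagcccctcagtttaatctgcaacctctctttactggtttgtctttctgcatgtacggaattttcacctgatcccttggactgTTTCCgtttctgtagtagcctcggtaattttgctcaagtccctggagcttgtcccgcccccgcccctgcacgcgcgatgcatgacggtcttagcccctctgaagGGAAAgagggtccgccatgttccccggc

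The internal Rcan1 window held 3 matches to GGAAA, whose first bases lay at positions -227 to -163 relative to the start, and 9.42% of 32851 mouse promoter windows of this length hold 3 or more. It also held 2 overlapping matches on opposite strands to TGACG, the core of a cyclic AMP response element (20.8% of windows hold at least 1), and 1 to TGANTCA, the AP-1 motif (7.81%). The upstream window held none of these letters, where 61.3% of windows hold at least 1 GGAAA, and it held 1 CANNTG, the E-box (72.3%). The Ppp3cb window held 4 matches to GGAAA, as 2.65% of windows hold 4 or more. In all, 12 windows of 7 member genes were read, and GGAAA was present in 7 of them, between 1 and 4 times. No window of Nfatc1, Camk2a or Ppp3ca was read, all of which fell. The window of Camk2b, which also fell, held no GGAAA. Each motif was searched on both strands, and a match is a string of letters, not a bound site. Which of the Rcan1 starts gives rise to the probed transcript was not determined.

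NFATc1 to NFATc4 are the calcineurin-dependent members of their family, and NFATc1 is the form most tied to slow fibre genes. The brighter Nfatc1 probe read 1.52, 1.55, 1.83 and 1.76 in PCKO, against 3.07, 2.72, 3.08 and 3.24 in WT. No PCKO value came near the lowest WT value. The log2 difference was -1.36 ± 0.13 or 2.57-fold lower (adjusted p = 3.24e-05), it was -1.36 in each slide row alone, and on the spike-in scale it was -0.68 (adjusted p = 0.0420). The dimmer Nfatc1 probe, which targets another transcript accession of the gene, ran from -0.37 to -0.13 in PCKO and from 0.61 to 0.81 in WT. It fell by 0.94 ± 0.09 on the log2 scale (adjusted p = 2.80e-05), and its call was lost on the spike-in scale (-0.26, adjusted p = 0.445).

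The brighter Nfatc2 probe read 1.35, 1.52, 1.51 and 1.29 in PCKO, against 2.53, 2.33, 2.41 and 3.16 in WT. The groups did not overlap, and WT replicate 4 stood highest. The log2 difference was -1.19 ± 0.18 or 2.28-fold lower (adjusted p = 0.000466), with -0.99 and -1.38 in the 2 slide rows and -0.50 on the spike-in scale, where it did not pass (adjusted p = 0.136). The dimmer Nfatc2 probe was well above background on all 4 WT arrays and on no PCKO array. Its values were -5.03, -5.92, -5.35 and -4.93 in PCKO, against -3.31, -3.66, -2.95 and -2.76 in WT, so the PCKO level is only bounded, at least 1.72-fold lower. That bound sets the WT mean against the PCKO mean of, per array, the probe's own value or the dimmest signal well above background, whichever is higher. The fitted difference of -2.14 shrank to -0.63 under the normexp model and to -0.37 in the deposited table, both smaller than the bound, which does not hold for those values. NFATc2 is also known from T cells. Of the 5 T cell markers, Cd3g and Cd8a were not well above background on any array, 2 of the 3 tested were lower, and their summed intensity was 0.387 to 0.555 in PCKO, against 0.638 to 0.936 in WT. Their part in the Nfatc2 difference was not tested.

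Nfatc3 and Nfatc4 did not pass. The brighter Nfatc3 probe ran from 0.33 to 0.86 in PCKO and from 0.41 to 0.58 in WT, with a log2 difference of 0.11 ± 0.12 (adjusted p = 0.425), and passed as higher on the spike-in scale (0.80, adjusted p = 0.0171). The dimmer Nfatc3 probe ran from -1.38 to -1.11 in PCKO and from -1.18 to -0.88 in WT, with a difference of -0.24 ± 0.10 (adjusted p = 0.0661). It passed as lower under the normexp model (-0.32, adjusted p = 0.0236) and without WT replicate 4 (-0.30, adjusted p = 0.0325), and stood at 0.45 on the spike-in scale (adjusted p = 0.185). Nfatc4 stood at 0.0032, 0.38, 0.18 and 0.27 in PCKO, against 0.83, 0.67, 0.13 and 0.71 in WT. Apart from WT replicate 3, the WT mice stood above all PCKO mice, and the difference of -0.38 ± 0.16 missed the threshold (adjusted p = 0.0683). Without that mouse it was -0.53 and passed (adjusted p = 0.00501), and with an intensity trend it passed as well (adjusted p = 0.0494), whereas on the spike-in scale it stood at 0.31 (adjusted p = 0.374). Nfat5, the tonicity-responsive relative that calcineurin does not control, was higher, at -1.64 ± 0.16 in PCKO and -2.54 ± 0.38 in WT (0.90 ± 0.18, adjusted p = 0.00255), a call lost under the normexp model (0.05, adjusted p = 0.776).

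The unequal change at the NFAT probes was also seen in ratios within each array. Nfatc1 relative to Nfatc3 averaged 1.06 ± 0.16 in PCKO and 2.54 ± 0.16 in WT (SD, n = 4 each), a difference of -1.48 log2 units. Relative to Nfatc4, Nfatc1 differed by -0.98, and Nfatc2 differed by -1.30 relative to Nfatc3 and by -0.81 relative to Nfatc4. In each of these 4 ratios every PCKO mouse lay below every WT mouse (exact permutation p = 0.029, adjusted p = 0.040 each). None of the 4 passed under quantile normalization, where the smallest adjusted p of any ratio was 0.05. That value is set by how many ratios reach the smallest exact p, and does not describe these 4 alone. The ratio of Nfatc1 to Nfatc2 ran from 0.03 to 0.47 in PCKO and from 0.08 to 0.68 in WT, a difference of -0.17 that did not pass (exact permutation p = 0.343). That of Nfatc3 to Nfatc4 differed by 0.49 (exact permutation p = 0.057, adjusted p = 0.073). Across the 9 ratios of related genes, 7 passed, and so did 3 of the 5 ratios between probes of 1 gene. Those 3 include the Nfatc2 pair, whose dimmer probe was not measured above background in PCKO. The NFAT ratios share probes and are not independent of each other. Ratios of unrelated genes were not tested, and 16182 of all 24872 tested probes were called.

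**Figure D2:**
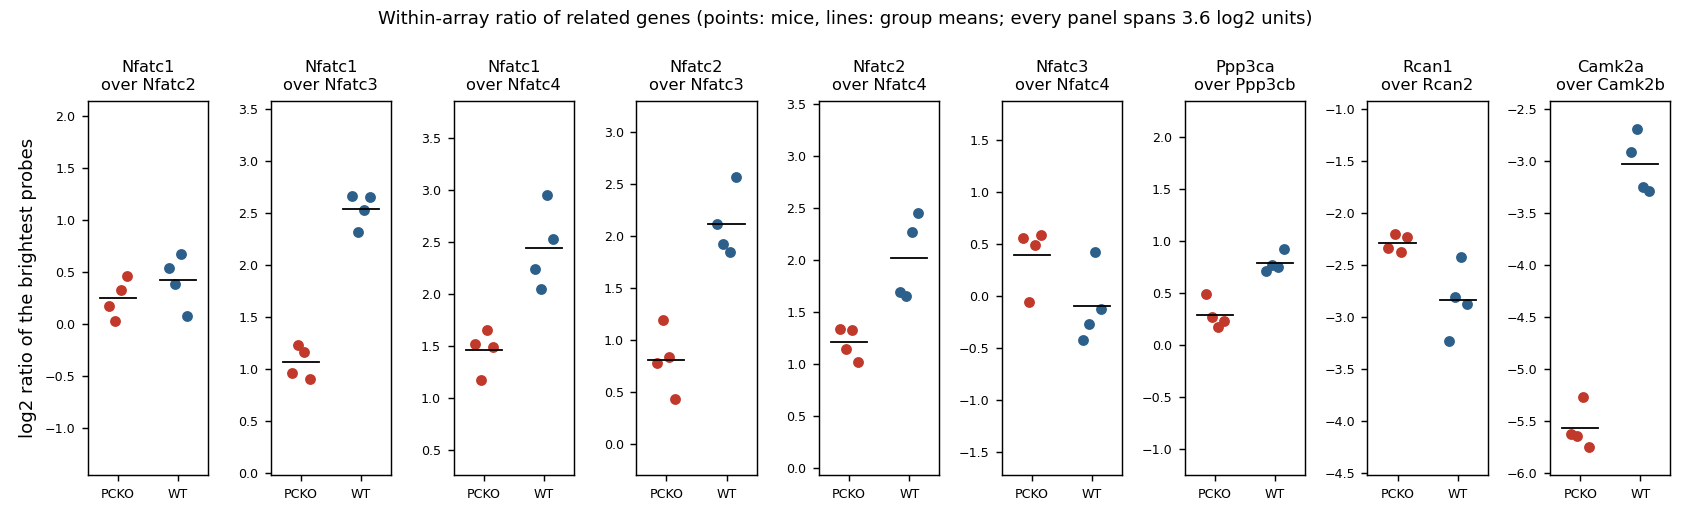
Within-array log2 ratio of the brightest probes of related genes (y axis) in each PCKO (red) and WT (blue) mouse, with group means as lines. Camk2a over Camk2b shows the widest gap, at -5.57 in PCKO and -3.03 in WT, while Nfatc1 over Nfatc2 overlaps.

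CaMKII is assembled from subunits of several genes, of which Camk2a is best known from brain and, in muscle, for an alternative product that anchors the kinase at the sarcoplasmic reticulum. Its brighter probe read -0.44, -0.47, 0.0035 and -0.58 in PCKO, against 3.21, 3.19, 3.03 and 3.05 in WT. The WT mice lay close together and far above the highest PCKO mouse, replicate 3. The log2 difference was -3.49 ± 0.13, a level 11.2-fold lower (adjusted p = 1.68e-07), and only 1.87% of all tested probes had a more negative one. The dimmer probe, designed on the same accession, read -2.34, -2.44, -2.37 and -2.29 in PCKO, against 0.67, 0.42, 0.30 and 0.30 in WT. It fell by 2.78 ± 0.10 or 6.89-fold (adjusted p = 1.39e-07). The difference between these probes passed (-0.71, exact permutation p = 0.029, adjusted p = 0.040). The brighter probe differed by -3.65 and -3.33 in the 2 slide rows, and on the spike-in scale the probes stood at -2.81 and -2.10. Under the normexp model the dimmer probe stood at -1.58 (adjusted p = 1.14e-08). Of the 4 Schwann cell and neuron markers, Tubb3 was not well above background on any array and 1 of 3 tested, Sox10, was lower. Their summed intensity was 3.06 to 5.80 in PCKO, against 4.42 to 6.63 in WT, and their part in the Camk2a difference was not tested.

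Camk2b, the other CaMKII gene of muscle examined here, changed less. Its brighter probe read 5.18, 5.17, 5.27 and 5.17 in PCKO, against 6.13, 5.87, 6.28 and 6.33 in WT. Every PCKO mouse stood below every WT mouse, with a log2 difference of -0.95 ± 0.11, or 1.94-fold lower (adjusted p = 9.64e-05), with -0.82 and -1.09 in the 2 slide rows. On the spike-in scale the call was lost (-0.27, adjusted p = 0.431). Its dimmer probe overlapped between groups, at -1.84 to -1.47 in PCKO and -1.58 to -1.05 in WT, and its difference of -0.39 ± 0.15 passed narrowly (adjusted p = 0.0436). That call was lost in 10 of 21 other settings, among them both slide rows alone and leaving out PCKO replicate 1, 2 or 4 or WT replicate 1 or 3, and its sign turned on the spike-in scale (0.29, adjusted p = 0.398). Camk2a relative to Camk2b averaged -5.57 ± 0.21 in PCKO and -3.03 ± 0.28 in WT (SD, n = 4 each), a difference of -2.54 log2 units (exact permutation p = 0.029, adjusted p = 0.040). Like every other ratio, this one did not pass under quantile normalization, where passing depends on the p-values of the other ratios as well.

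Both remaining CaMKII genes were called lower at their brightest probes, the second not stably. Camk2g, the gamma subunit, averaged 6.64 ± 0.11 in PCKO and 7.99 ± 0.22 in WT and differed by -1.34 ± 0.12 or 2.53-fold (adjusted p = 2.27e-05). Camk2d, the delta subunit, differed by -0.34 ± 0.08 at its brightest probe (adjusted p = 0.00531). Its dimmer probes overlapped between groups and had no call (-0.15 and -0.11, adjusted p = 0.322 and 0.443 in that order). The call of the brightest probe ended when arrays were quantile-normalized (-0.18, adjusted p = 0.0578) and under the normexp model (-0.04, adjusted p = 0.808). Its sign turned on the spike-in scale (0.34, adjusted p = 0.317). The genes of the CaMKII inhibitor proteins went the other way. Camk2n2 averaged 2.99 ± 0.06 in PCKO and 1.06 ± 0.18 in WT, higher by 1.92 ± 0.10 log2 units (adjusted p = 1.08e-06). Camk2n1 averaged 1.68 ± 0.04 in PCKO and 0.96 ± 0.10 in WT, higher by 0.71 ± 0.08 (adjusted p = 7.78e-05). On the spike-in scale their differences were 2.61 and 1.40.

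**Figure D3:**
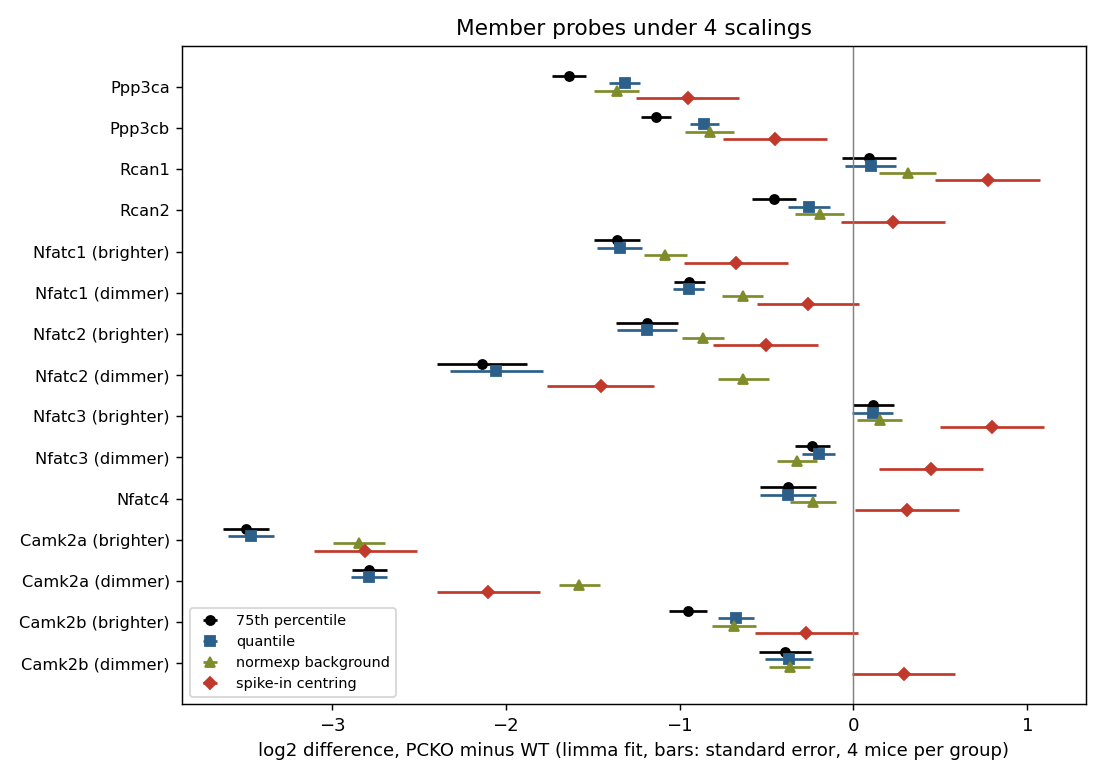
Log2 difference, PCKO minus WT (x axis, bars are limma standard errors, 4 mice per group), of each probe under 4 scalings. The Camk2a probes stay between -3.49 and -1.58 in all 4, whereas Rcan2, Nfatc4 and the dimmer Camk2b and Nfatc3 probes cross 0 on the spike-in scale.

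Further genes of the pathway were read from 3 lists. Of 25 other calcineurin and NFAT genes tested, 11 were lower and 5 were higher (background 31.9% lower and 37.5% higher), with a median log2 difference of -0.26 against 0.06 over all genes. On the spike-in scale 5 were lower and 10 higher, where 15527 of all 24872 tested probes were called and 84.6% of those calls were higher. The steepest were the calsarcins, Z-disc proteins that bind calcineurin. Myoz2 averaged 0.06 ± 0.51 in PCKO and 5.35 ± 0.42 in WT (-5.28 ± 0.29), Myoz1 averaged 4.99 ± 0.30 in PCKO and 9.31 ± 0.13 in WT (-4.33 ± 0.15), and the brighter Myoz3 probe averaged 1.19 ± 0.17 in PCKO and 5.47 ± 0.08 in WT (-4.27 ± 0.10). These are 39.0-fold, 20.1-fold and 19.3-fold lower levels (adjusted p = 1.19e-06, 1.22e-07 and 2.38e-08 in that order). Dyrk1b, a kinase of the family that phosphorylates NFAT, fell by 1.94 ± 0.11 (adjusted p = 1.45e-06). Besides Rcan3 and Nfat5, the higher genes were Akap5, a scaffold that anchors calcineurin (1.76 ± 0.26), Cib1, a calcium-binding partner of calcineurin (1.50 ± 0.09), and Cabin1, a calcineurin-binding inhibitor (0.75 ± 0.09), which were named after their values were seen. The call for Akap5 ended under the normexp model (0.16, adjusted p = 0.344). Only 2 WT arrays were well above background for Akap5, so the size of its difference is uncertain.

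Of 16 tested genes of calmodulin and other CaM kinases, 6 were lower and 4 were higher (background 31.9% lower and 37.5% higher), with a median of -0.04 against 0.06 over all genes. Centred on the spike-ins, 2 were lower and 8 higher, where 15527 of all 24872 tested probes were called and 84.6% of those calls were higher. Calm2, which encodes calmodulin, was lower (-0.57 ± 0.10, adjusted p = 0.00128), a call that ended when arrays were quantile-normalized (-0.16, adjusted p = 0.159), and on the spike-in scale it stood at 0.12. Calm3 did not pass at its brightest probe (0.12 ± 0.10, adjusted p = 0.299), while its dimmer probe was lower (-0.48 ± 0.13, adjusted p = 0.00924). Camk1g and Camk1d, of the CaM kinase I group, were lower, with log2 differences of -2.83 ± 0.23 for Camk1g and -1.27 ± 0.21 for Camk1d, Camk1g with 3 PCKO arrays well above background. Camk1 did not pass (0.23 ± 0.11, adjusted p = 0.0929), and Camk4 was not tested, with 1 of its 3 probes well above background on 1 WT array. Camkk2, a kinase that activates CaM kinases and AMP-activated kinase, was higher by 1.04 ± 0.09 (adjusted p = 1.37e-05), while Camkk1 did not pass (0.40 ± 0.17, adjusted p = 0.0648). The last of the 4 higher genes was Strn, a calmodulin-binding scaffold named after its value was seen (1.16 ± 0.22), which stood at -0.03 under the normexp model. For Strn, only 2 WT arrays were well above background, so the size of its difference is uncertain.

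Of 11 genes often read as outputs of calcineurin in slow and oxidative fibres, 10 were lower and 1 was higher (background 31.9% lower and 37.5% higher), with a median of -3.87 against 0.06 over all genes, and the same counts held on the spike-in scale. Tnni1 (-7.25 ± 0.30), Tnnc1 (-6.02 ± 0.34), Myh7 (-5.82 ± 0.21) and Tnnt1 (-4.76 ± 0.23), slow troponins and slow myosin, had the largest differences. For Tnni1, 2 PCKO arrays were well above background. The higher one was Ppargc1a, the coactivator PGC-1alpha, named after its value was seen, at 6.28 ± 0.11 in PCKO and 3.61 ± 0.18 in WT. It was 6.34-fold higher (2.67 ± 0.11, adjusted p = 2.54e-07) and 2.84 ± 0.14 higher at its dimmer probe. Lower levels were not particular to the slow fibre list. The 8 muscle fibre markers differed by -4.43 (Mylpf) to -0.63 (Tnni2), with Ckm at -3.24 and Acta1 at -3.01.

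**Figure D4:**
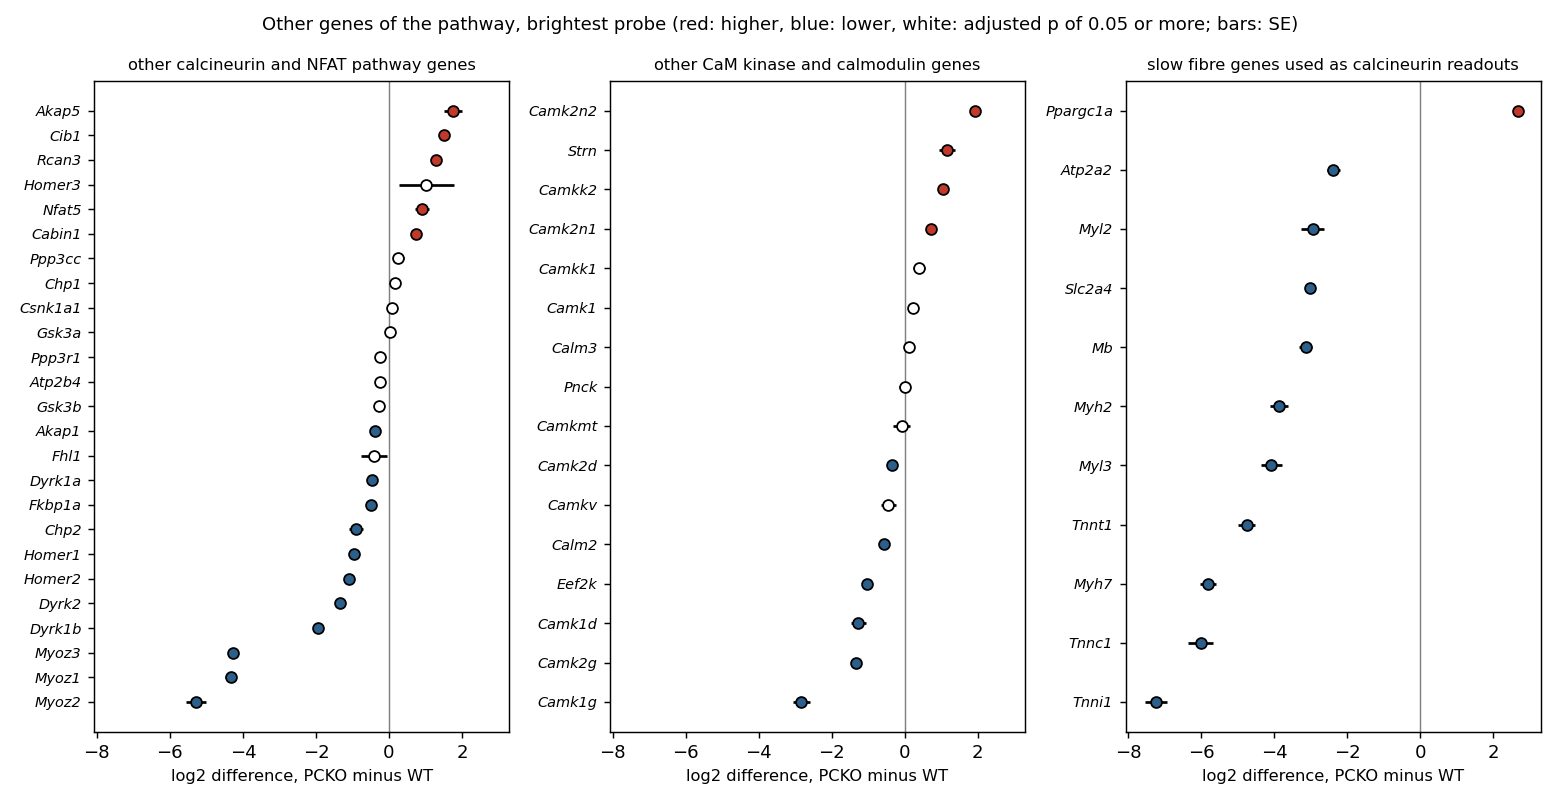
Log2 difference, PCKO minus WT (x axis, brightest probe of each tested gene, bars are standard errors), in 3 lists of related genes; red marks higher, blue lower and white no call. The calsarcins Myoz1, Myoz2 and Myoz3 lie below -4 in the left panel, and Ppargc1a at 2.67 is the only red point in the right panel.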

How the data were processed

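RNA of each mouse was labelled with Cy3 and hybridised to an Agilent mouse array, all 8 on 1 slide, per the labels and file headers. The scanner files hold spot intensity values deposited by the authors from Feature Extraction (version 10.7.3.1 in the headers), background-subtracted within the array and not normalized between arrays. The authors also deposited a table of log2 values, with no account of its making in the sources used here. It lists 32622 of 55681 non-control probes and was used as 1 alternative.

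Each log2 processed intensity was taken relative to the 75th percentile of its array, computed on non-control probes. Control and outlier spots were left out, spots of 1 probe were averaged, and no array was missing for a member probe. Accessions were matched without versions to RefSeq transcripts (GRCm38.p6), naming 26582 probes. The files' array design is on an older build, so its coordinates were not used. The only coordinates given are those of the RefSeq promoter windows (GRCm38.p6). Probes well above background on at least 4 arrays were fitted with limma 3.58.1 in R 4.3.3 (group as the only term, two-sided, Benjamini-Hochberg over 24872 probes). The brightest probe stood for a gene. Between 43.5% and 46.1% of probes lay well above background and no spot was saturated; 4 mice per group limit the precision. Probe sequences were not used, so cross-hybridisation between related genes was not examined. Ratios of related genes used exact permutation tests, adjusted over 14 ratios. Named genes were all members, both targeted genes, the 4 largest called changes per list with non-overlapping groups, and fixed relatives of the members; 1 listed gene was taken out of its list and is not reported here. Members and lists were chosen with earlier results of these data known. The replicate numbers that the labels give both groups were checked for pairing. The alternatives were other scalings, background corrections, filters and fits, each slide row, and leaving out each mouse.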

Additional observations from a re-analysis of the deposited data

Results flagged for a closer look

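One value stood apart from its group of 4 by Dixon's test. The brighter Camk2b probe read 5.27 in PCKO replicate 3, against 5.17 to 5.18 in the other 3 PCKO mice, a gap of 0.834 of the group's range. It was 1 of 30 groups examined, and chance flags about 1 in 20. The 3 lower values lie within 0.02 log2 units, so the distance itself is small, and without that mouse the Camk2b difference was -0.98 (adjusted p = 0.000406).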

How the results depend on the processing

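On the spike-in scale, 5 member probes were lower and 2 higher, 5 calcineurin and NFAT list genes were lower and 10 higher, and 2 CaM kinase and calmodulin genes were lower and 8 higher. Of all 24872 tested probes 15527 were called on that scale, 84.6% of them higher. Among called genes, signs turned there for Rcan2 (0.23), the dimmer Camk2b probe (0.29), Akap1 (0.29), Dyrk1a (0.22), Fkbp1a (0.19), Calm2 (0.12) and Camk2d (0.34). Of the genes with no call that the text names, Nfatc4 (0.31), the dimmer Nfatc3 probe (0.45) and Ppp3r1 (0.45) turned positive, and Pnck passed as higher (0.68, adjusted p = 0.0383). Error shared by all probes of an array enters that setting and makes its p-values too small. Under quantile normalization 8 calcineurin and NFAT list genes were higher, where 16446 of 24872 probes were called and 57.6% of those calls were higher. With the normexp model Strn stood at -0.029. The ratio of the Nfatc2 probes, which turned to -0.23 there, gives no result, since the dimmer probe was above background on no PCKO array. The deposited table held fewer probes. There 9394 of 14601 probes were called, with 6 of 10 member probes, 4 of 15 calcineurin and NFAT genes, 2 of 10 CaM kinase and calmodulin genes and 6 of 6 slow fibre genes lower, and 0 slow fibre genes higher. With 1 probe a gene 9051 of 12739 were called, 53.9% of them higher, and 7 of 10 members were lower. Each slide row alone leaves 2 mice per group and gave 10763 and 10733 calls, 50.5% and 50.8% of them higher, with 9 of 15 member probes lower in each. Leaving out each mouse gave 15112 to 15807 calls, against 16182, and 10 to 12 lower member probes. Same-numbered arrays deviated together at r of 0.02 to 0.09, and 6 of 8 arrays correlated best with their own number. The replicate block gave 15891 calls and again 11 lower member probes. Differences of dim probes are limited by signal over background.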
